A study of Mus musculus with 2 samples.

Results

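The 8 genes described here encode mouse chemokines of the CC class, small secreted proteins that attract leukocytes through receptors on the cell surface. They are Ccl3, Ccl4, Ccl5, Ccl6, Ccl9, Ccl17, Ccl22 and Ccl24, taken by symbol from a deposited table of 54751 gene rows, and each symbol matched 1 row. The table has 30 rows with a Ccl symbol in all. The data set holds 2 RNA-seq libraries of wild-type (WT) mouse MDSCs (myeloid-derived suppressor cells), a mixed population of immature cells that dampens T cell responses, derived from bone marrow and kept in RPMI medium with serum. One library came from cells treated with mrWNT2, the labels' name for the agent, and the other from vehicle-treated control cells. WNT2 belongs to the WNT family of secreted signalling proteins. The protocol gives treatment on day 0 and day 3, and both libraries are labelled day 6. The strain, age and number of animals and the factors used to grow the cells are not given in the sources used here. With 1 library per group there is no replicate check and no test, and every interval below covers counting error only and compares these 2 libraries.

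CC chemokines are grouped by the receptors they use. Ccl3, Ccl4 and Ccl5 are inflammatory chemokines that draw in monocytes, T cells and NK cells. Ccl6 and Ccl9 are rodent chemokines made in large amounts by myeloid cells, and both signal through Ccr1. Ccl17 and Ccl22 share the receptor Ccr4, which is carried by type 2 helper and regulatory T cells, and Ccl24 attracts eosinophils through Ccr3.

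The mrWNT2 library held 12621110 counts and the control library 13474453. All 9 MDSC marker genes, most of which neutrophils or monocytes also express, were above the expression minimum, and they summed to 36596 CPM (counts scaled to library size, per 1e6) with mrWNT2 and 43467 CPM in control. Most of that sum came from S100a9 and S100a8. Of the 9, 1 was higher past 2-fold, Nos2, with 917 counts with mrWNT2 and 149 in control. The 2 that were lower past 2-fold were Arg1 and Ly6g. Arg1 had 1187 counts with mrWNT2 and 3376 in control. Ly6g had 1098 counts with mrWNT2 and 2315 in control, and lay close to the 2-fold line. Of all genes above the minimum, 3.38% were higher and 2.49% lower past 2-fold. Because the RNA came from whole cultures, a change in the share of cells that make a transcript and a change in the RNA per cell cannot be told apart.

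The promoter sequences of 5 of the 8 genes are held in the reference (RefSeq, GRCm38.p6), each from 250 bases before to 50 bases after the start that RefSeq gives and written along the gene's own strand. That start is the one in the deposited table for Ccl9, Ccl6 and Ccl17, and lies 94 bases from it for Ccl22 and 23 bases from it for Ccl3. Those of the adjacent genes Ccl9 and Ccl6 are shown because these neighbours, both expressed at high levels, differed in opposite directions. Capitals mark the stretch that a local alignment found in both.
Ccl9: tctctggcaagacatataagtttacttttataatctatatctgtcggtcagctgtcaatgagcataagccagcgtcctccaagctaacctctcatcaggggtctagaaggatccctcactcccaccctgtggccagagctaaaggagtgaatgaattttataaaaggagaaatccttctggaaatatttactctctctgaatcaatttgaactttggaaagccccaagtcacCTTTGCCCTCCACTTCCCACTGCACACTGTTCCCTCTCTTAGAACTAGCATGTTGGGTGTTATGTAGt
Ccl6: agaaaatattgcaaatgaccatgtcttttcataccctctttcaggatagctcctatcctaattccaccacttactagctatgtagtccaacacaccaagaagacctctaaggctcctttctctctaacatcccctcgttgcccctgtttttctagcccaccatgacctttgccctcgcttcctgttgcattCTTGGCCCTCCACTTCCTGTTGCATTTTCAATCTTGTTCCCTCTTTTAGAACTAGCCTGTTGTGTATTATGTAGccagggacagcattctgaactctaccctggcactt
The Ccl9 sequence is chr11:83578587-83578886 on the minus strand, and the Ccl6 sequence is chr11:83593038-83593337 on the minus strand. The shared stretch covers 67 bases of Ccl9 and 74 bases of Ccl6 and is identical at 59 of 74 aligned positions (79.7%, 7 of the positions being gaps). It begins 18 bases before the start of Ccl9 and 59 bases before that of Ccl6.

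The promoters of Ccl17 and Ccl22 are shown as those of the pair that shares a receptor and was higher together. Capitals in Ccl17 mark the STAT-type matches given below, and Ccl22 held no match to any motif searched.
Ccl17: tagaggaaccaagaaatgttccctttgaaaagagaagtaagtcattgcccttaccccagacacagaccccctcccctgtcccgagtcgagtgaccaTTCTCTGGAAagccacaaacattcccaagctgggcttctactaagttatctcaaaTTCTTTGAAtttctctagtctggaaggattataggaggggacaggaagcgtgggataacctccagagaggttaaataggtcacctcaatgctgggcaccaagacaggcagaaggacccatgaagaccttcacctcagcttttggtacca
Ccl22: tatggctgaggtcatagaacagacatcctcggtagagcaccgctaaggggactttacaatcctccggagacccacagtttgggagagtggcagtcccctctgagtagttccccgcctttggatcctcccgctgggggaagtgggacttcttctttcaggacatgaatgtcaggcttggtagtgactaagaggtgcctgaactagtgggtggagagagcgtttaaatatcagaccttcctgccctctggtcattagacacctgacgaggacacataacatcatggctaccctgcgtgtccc
The Ccl17 sequence is chr8:94810203-94810502 on the plus strand, and the Ccl22 sequence is chr8:94745434-94745733 on the plus strand.

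In the mrWNT2 library 6 of the 8 chemokine genes were higher than in control, 5 of them by 2-fold or more. Ccl5 was 15.5-fold higher, Ccl22 5.02-fold, Ccl17 2.70-fold, Ccl3 2.22-fold, Ccl4 2.04-fold and Ccl9 1.90-fold. Ccl6, by far the most abundant of the 8, was 1.38-fold lower, and Ccl24 was barely detected in either library.

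Of the 8 genes, 7 passed the minimum of a mean of 1 CPM over both libraries, and Ccl24 did not. Among those 7, 5 were higher with mrWNT2 by 2-fold or more and 0 were lower by as much. Of the 12856 genes of the table that passed the same minimum, 3.38% were higher by 2-fold or more, 2.49% were lower by as much, and 5.87% lay past 2-fold in either direction. At a line of 1.5-fold, 6 of the 7 were higher and 0 lower, where 7.62% of all genes were higher and 7.02% lower. The median log2 ratio of mrWNT2 over control was 1.15 over the 7 and 0.02 over all genes tested. The members were chosen with earlier results of these data known, so they are not an independent set to hold against all genes. Because Ccl4 lay close to the 2-fold line, the count at 2-fold was 4 with DESeq2 size factors or upper-quartile scaling. These put the log2 ratio of Ccl4 just under 1 (0.98 with the upper quartile). The deposited FPKM, whose ratios equal those of DESeq2 size factors, also gave 4 and is not a separate check. The count was 4 too with the minimum raised to a mean of 10 CPM, since Ccl5, at a mean of 9.25 CPM, was then left out.

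**Figure D1:**
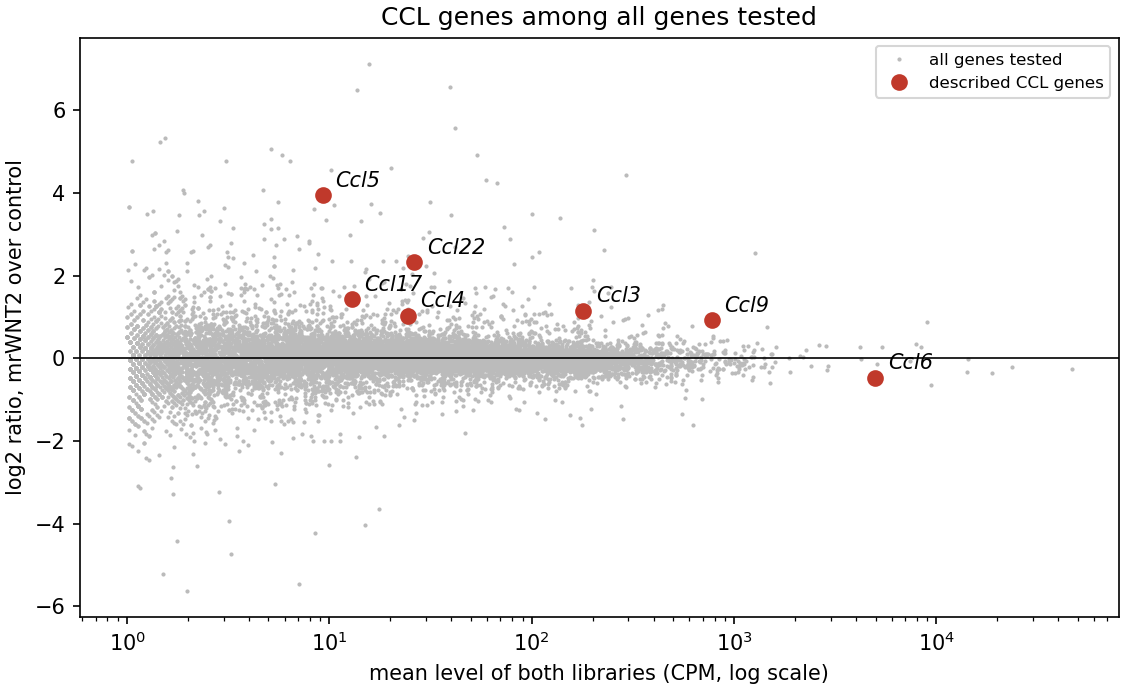
Log2 ratio of mrWNT2 over control (vertical) against the mean level of both libraries in CPM on a log axis (horizontal), with 1 grey point for each of 12856 genes tested and the 7 measured CCL genes in red. Ccl5 lies at 3.95 and Ccl22 at 2.33, while Ccl6 is the most abundant of the 7 and lies at -0.47.

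The inflammatory chemokines Ccl3, Ccl4 and Ccl5 were all higher with mrWNT2. Ccl5, also called RANTES, attracts T cells, eosinophils and monocytes. It had 221 counts with mrWNT2 and 15 in control, or 17.4 CPM with mrWNT2 and 1.12 CPM in control. The log2 ratio was 3.95, with a 95% counting interval of 9.19-fold to 28.2-fold for the ratio of 15.5-fold. The control value thus rests on few counts, and the counts of the libraries lie far apart. The ratio of Ccl5 exceeded that of 99.8% of all genes tested, and it ranked 21 of 12856.

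Ccl3, a chemoattractant and activator of granulocytes and monocytes, had 3150 counts with mrWNT2 and 1489 in control. These amounted to 248 CPM with mrWNT2 and 111 CPM in control, a 2.22-fold ratio (2.09 to 2.37). Ccl4, a close relative of Ccl3 that attracts monocytes and T cells, had 416 counts with mrWNT2 and 214 in control, or 32.7 CPM and 16.0 CPM in the same order, a 2.04-fold ratio (1.73 to 2.42). Ccl3 and Ccl4 lie next to each other and kept almost the same proportion in both libraries. On the FPKM scale the Ccl4 level was 0.153 times that of Ccl3 with mrWNT2 and 0.167 times in control. This scale divides counts by gene length and by a scaled library size. Between libraries it gave the same ratios here as DESeq2 size factors, not those of library totals. The Ccl3 over Ccl4 proportion differed between the libraries by a factor of 1.09 (exact conditional interval 0.908 to 1.30), a value that does not depend on how libraries are scaled and whose interval includes 1. Ccl5 in FPKM was 0.365 times Ccl4 with mrWNT2 and 0.0482 times in control, a 7.57-fold difference (4.35 to 14.1).

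**Figure D2:**
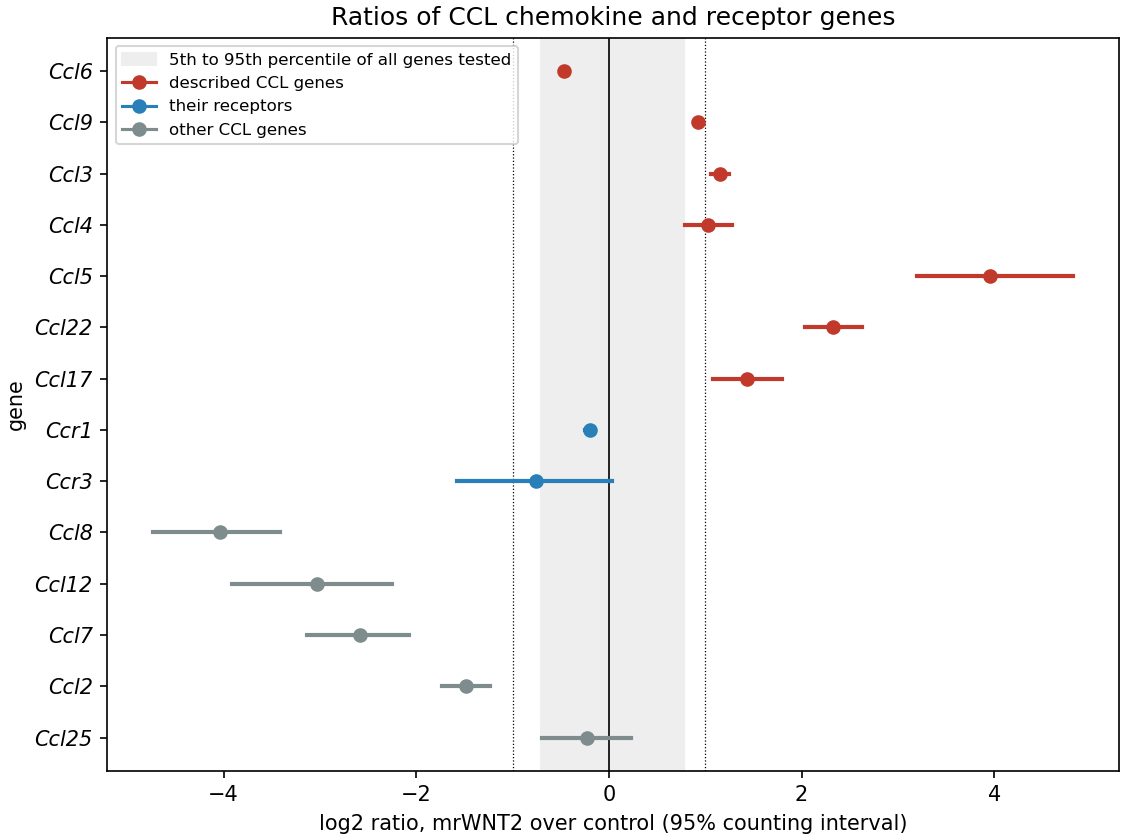
Log2 ratio of mrWNT2 over control (horizontal, points) with 95% counting intervals (lines) for the 7 measured CCL genes, 2 receptor genes and 5 other CCL genes. Grey shading spans the 5th to 95th percentile of all genes tested, from -0.71 to 0.78, and dotted lines mark a 2-fold ratio. Of the 7 CCL genes described, all but Ccl6 lie to the right of the shading, and the 4 monocyte-attracting genes lie to its left.

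Ccl6 and Ccl9, the myeloid chemokines of rodents, differed in opposite directions. Ccl6 had 53328 counts with mrWNT2 and 77448 in control. At 4194 CPM with mrWNT2 and 5791 CPM in control it was 1.38-fold lower (1.37 to 1.40), a log2 ratio of -0.47. Among all genes tested, 9.44% had a lower ratio, so that Ccl6 lay inside the bulk of the ratios even though its loss in level, a difference of -1598 CPM, was larger than the gain of any of the other 7. Ccl9 had 12897 counts with mrWNT2 and 7156 in control, or 1014 CPM and 535 CPM in the same order. It was 1.90-fold higher (1.84 to 1.95), and its log2 ratio of 0.92 exceeded that of 96.1% of genes tested. Ccl6 in FPKM was 7.01 times Ccl9 with mrWNT2 and 18.4 times in control, a 2.62-fold difference (2.54 to 2.70) that no scaling of the libraries can alter.

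Ccl17 and Ccl22, the ligands of Ccr4, were both higher. Ccl22, also called MDC, had 558 counts with mrWNT2 and 117 in control. These were 43.9 CPM with mrWNT2 and 8.75 CPM in control, a 5.02-fold ratio (4.10 to 6.18) that exceeded that of 99.3% of genes tested. Ccl17, also called TARC, had 239 counts with mrWNT2 and 93 in control, or 18.8 CPM and 6.95 CPM in the same order, a 2.70-fold ratio (2.12 to 3.47) that exceeded that of 98.2% of genes tested. The pair did not keep its proportion: Ccl22 in FPKM was 0.516 times Ccl17 with mrWNT2 and 0.278 times in control, a 1.85-fold difference (1.34 to 2.56). Ccl24, the eosinophil chemoattractant, had 1 count with mrWNT2 and 3 in control. Both lie at or under 3 counts, the upper limit that a count of 0 allows, so no ratio is given.

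Levels of different genes were compared on the deposited FPKM scale. The order of the 8 genes was identical in both libraries, namely Ccl6, Ccl9, Ccl3, Ccl4, Ccl17, Ccl22, Ccl5 and Ccl24, from high to low. Ccl6 stood at 2309 FPKM with mrWNT2 and 3264 FPKM in control, and ranked 12 with mrWNT2 and 10 in control among all genes of the table. Ccl9 stood at 329 FPKM with mrWNT2 and 178 FPKM in control, and Ccl3 at 320 FPKM with mrWNT2 and 147 FPKM in control. Counting intervals of Ccl9 and Ccl3 overlapped in the mrWNT2 library, at 324 to 335 and 309 to 331 FPKM, and did not in control, at 174 to 182 and 140 to 155 FPKM. Those 2 genes ranked 80 and 85 with mrWNT2, against 201 and 247 in control.

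The other members were weaker. Ccl4 stood at 49.0 FPKM with mrWNT2 and 24.5 FPKM in control, and Ccl17 at 36.1 FPKM with mrWNT2 and 13.7 FPKM in control. Ccl22 and Ccl5 were close together with mrWNT2, at 18.7 and 17.9 FPKM, with overlapping intervals of 17.1 to 20.3 and 15.6 to 20.4 FPKM. In control they stood apart, at 3.81 FPKM for Ccl22 and 1.18 FPKM for Ccl5, with intervals of 3.15 to 4.56 and 0.66 to 1.95 FPKM. Ccl24 was at 0.060 FPKM with mrWNT2 and 0.175 FPKM in control.

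**Figure D3:**
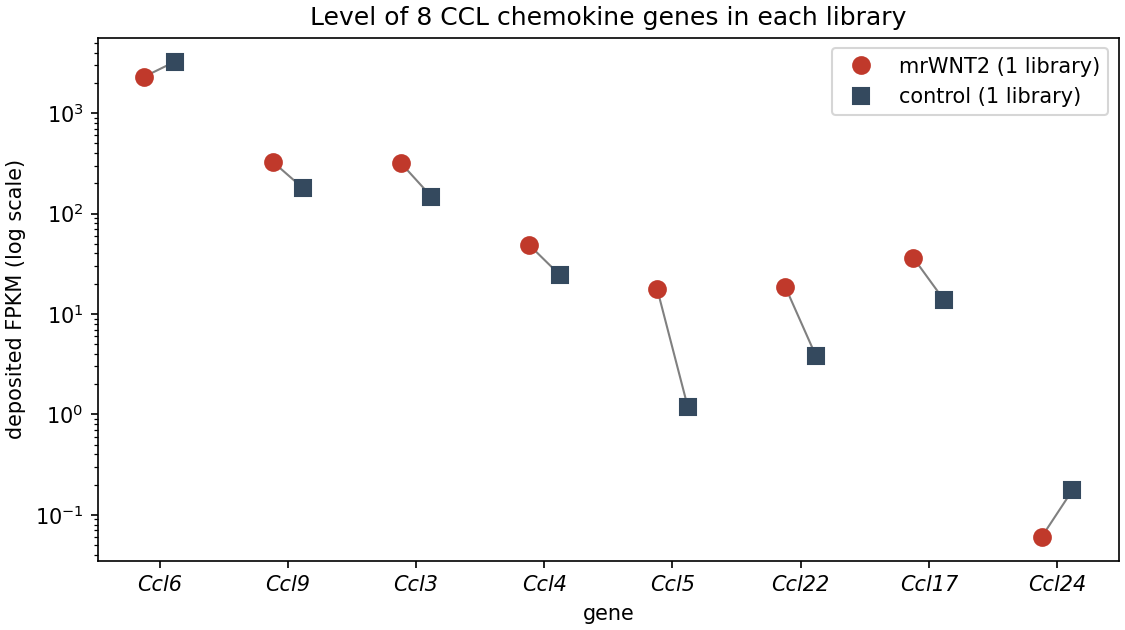
Deposited FPKM on a log axis (vertical) for each of the 8 CCL genes (horizontal) in the mrWNT2 library (red circles) and the control library (dark squares). The lines between the points slope down from mrWNT2 to control for 6 genes, and up for Ccl6 (2309 and 3264 FPKM) and the barely detected Ccl24.

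Because Ccl6 dominated, the summed level of the 8 genes was lower with mrWNT2 although most members were higher. The sum was 3080 FPKM with mrWNT2 and 3632 FPKM in control, a ratio of 0.85. Ccl6 made up 75.0% of that sum with mrWNT2 and 89.9% in control. Ccl9 and Ccl3 together filled most of the remainder, with 10.7% and 10.4% in the mrWNT2 library and 4.89% and 4.05% in control. Without Ccl6, a sum formed after the values were seen, the other 7 genes reached 771 FPKM with mrWNT2 and 368 FPKM in control, a 2.09-fold ratio.

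**Figure D4:**
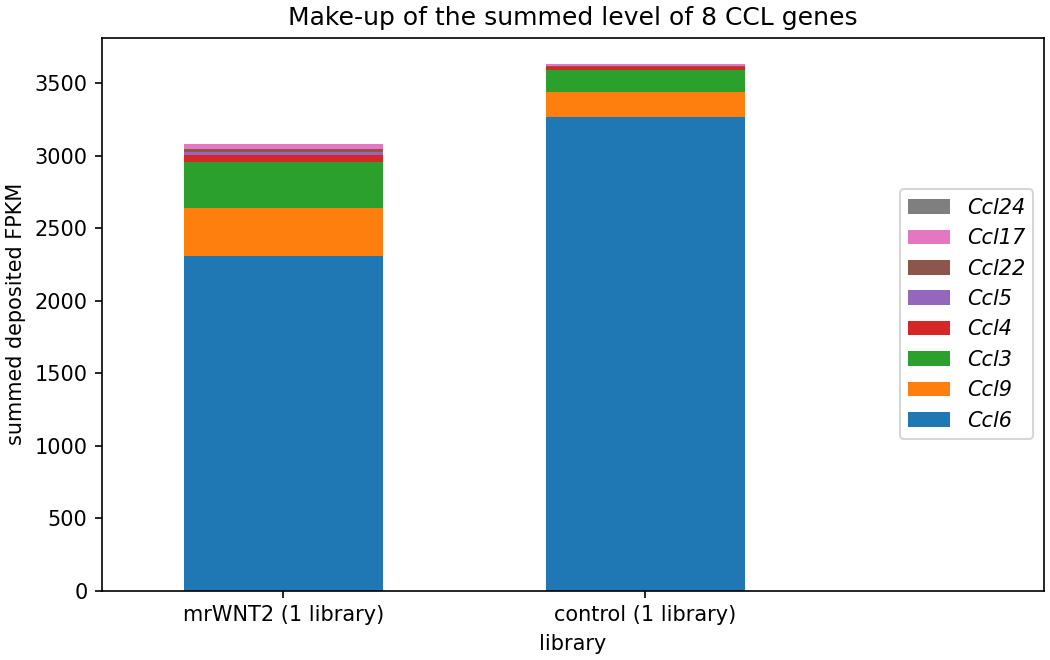
Summed deposited FPKM of the 8 CCL genes (vertical, from 0) in the mrWNT2 library (left bar) and the control library (right bar), stacked by gene. Ccl6 fills 75.0% of the left bar and 89.9% of the right bar, and the Ccl9 and Ccl3 blocks are taller on the left.

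By position, 5 of the genes form a row on chromosome 11 (GRCm38) and 2 lie together on chromosome 8. From low to high coordinate the row is Ccl5 (ENSMUSG00000035042, 83525778 to 83530518, minus strand), Ccl9 (ENSMUSG00000019122, 83572919 to 83578636, minus), Ccl6 (ENSMUSG00000018927, 83587882 to 83593087, minus), Ccl3 (ENSMUSG00000000982, 83647844 to 83649355, minus) and Ccl4 (ENSMUSG00000018930, 83662584 to 83664683, plus). It spans 139 kb, with 9.24 kb between Ccl9 and Ccl6 and 13.2 kb between Ccl3 and Ccl4. The single gene lower with mrWNT2, Ccl6, thus lies between Ccl9 and Ccl3, both of which were higher. On chromosome 8, Ccl22 (ENSMUSG00000031779, 94745590 to 94751699, plus) and Ccl17 (ENSMUSG00000031780, 94810453 to 94812036, plus) are 58.8 kb apart, and Ccl24 (ENSMUSG00000004814, 135569937 to 135573049, minus) lies on chromosome 5. The GENCODE annotation gives the start and end of the table for all 8, and their protein-coding transcripts have 3 or 4 exons.

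Of 23 other protein-coding genes within 100 kb of a member, 15 passed the minimum, and 0 of these lay past 2-fold in either direction (median log2 ratio 0.08). Of all genes tested, 5.87% lay past 2-fold, so a count of 0 among 15 is close to that share. On the chromosome 11 side, Wfdc17 had a log2 ratio of 0.54 (3450 counts with mrWNT2, 2501 in control), Wfdc21 of 0.26 and Heatr6 of 0.08. Beyond Ccl5, Taf15, which encodes an RNA-binding protein, had a log2 ratio of 0.30, 1700020L24Rik of -0.38 and the metalloproteinase gene Mmp28 of 0.78 from 18 counts with mrWNT2 and 11 in control. Around Ccl22 and Ccl17, the RNA polymerase II subunit gene Polr2c had a log2 ratio of 0.24, Coq9 of 0.04 and Ciapin1 of 0.01 (both changing sign with the scaling), Rspry1 of -0.20, Arl2bp of -0.45 and Dok4 of -0.75, the last from 13 counts with mrWNT2 and 23 in control. Next to Ccl24, Hip1 had a log2 ratio of 0.06, Rhbdd2 of 0.23 and Por of 0.16. Of all 17 neighbours that passed the minimum, non-coding ones included, 1 lay past 2-fold, the non-coding E230016K23Rik, which was lower.

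**Figure D5:**
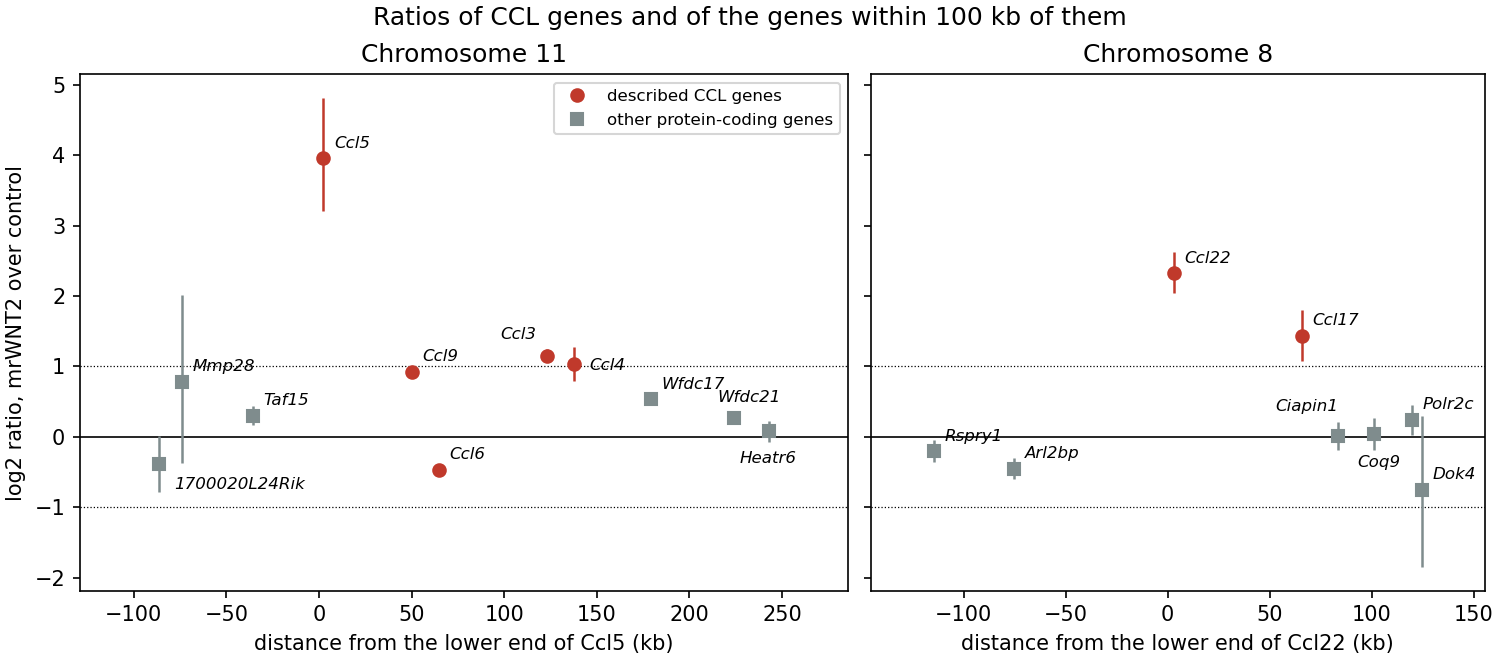
Log2 ratio of mrWNT2 over control (vertical) with 95% counting intervals against distance in kb from the lower end of Ccl5 on chromosome 11 (left) and of Ccl22 on chromosome 8 (right). Red circles are CCL genes and grey squares are the other measured protein-coding genes within 100 kb, whose points all lie between the dotted 2-fold lines.

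Close relatives can share reads, so the overlap of transcripts was measured. Of all stretches of 50 bases in the reference transcripts, 0 of those of Ccl3, Ccl4, Ccl5, Ccl6, Ccl17, Ccl22 and Ccl24 occurred in a transcript of another gene on either strand. For Ccl9, 1.97% of such stretches occurred in other genes on the same strand and 1.67% on the opposite strand. No member shared a stretch of that length with another member.

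Motifs were searched in the 5 promoters on both strands. The NF-kB consensus had 1 match, in Ccl9 (ggaaagcccc, a match on the strand opposite to the gene, read here along the gene), which begins 35 bases before the gene's start, and 4.51% of 32851 reference promoters hold one. The AP-1 site, TGANTCA, lay in Ccl9 too, 53 bases before the start, and 7.81% of promoters hold one. Both lie just before the stretch shared with Ccl6. The promoters of Ccl6, Ccl3 and Ccl22 held no match to any motif searched. Of these genes, Ccl6 was lower with mrWNT2, and Ccl3 and Ccl22 were higher. The STAT6-type site, TTC and GAA with 4 bases between them on either strand, began 154 bases before the start of Ccl17 and is held by 6.95% of promoters, and the STAT-type site, with 3 bases between them, began 99 bases before it and is held by 8.3%. The TATA box, TATAAA, had 3 matches in Ccl9, 2 of them overlapping, and 13.6% of promoters hold one. They begin 224, 94 and 92 bases before the start, and only the last is on the gene's own strand. No member promoter held an interferon response element (GAAA repeated after 2 bases, 3.44% of promoters), a TCF/LEF core (CTTTGNT, 18.6%) or a PU.1 core (GAGGAAG, 13.6%). A match describes the letters only, and no matches to different motifs overlapped.

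Receptor genes of these chemokines were set beside their ligands. Ccr1, the receptor of Ccl3, Ccl5, Ccl6 and Ccl9, had 6737 counts with mrWNT2 and 8131 in control and was 1.15-fold lower (1.11 to 1.19). Ccr3 had 22 counts with mrWNT2 and 39 in control, 1.69-fold lower with an interval of 0.98 to 2.99 that includes 1. Ccr4, the receptor of Ccl17 and Ccl22, had 12 counts with mrWNT2 and 3 in control, a 4.21-fold ratio (1.14 to 23.2) below the expression minimum. The decoy receptor gene Ackr1 had 1 count with mrWNT2 and 0 in control. The scavenger receptor gene Ackr2 had 0 counts in either library, which allows a level of up to 0.236 CPM with mrWNT2 and 0.224 CPM in control.

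Other CCL genes differed the other way. Of 14 listed, 5 passed the minimum and 4 were lower with mrWNT2 by 2-fold or more, all 4 from the monocyte-attracting group also found on chromosome 11. Ccl8 had 22 counts with mrWNT2 and 380 in control, a log2 ratio of -4.04. Ccl12 had 15 counts with mrWNT2 and 129 in control, a log2 ratio of -3.03. Ccl7 and Ccl2 had log2 ratios of -2.58 and -1.48. Among 17 CXC and other chemokine ligand genes, 8 passed the minimum, 5 being higher past 2-fold and 2 lower, with a median log2 ratio of 1.14. Over all genes tested the shares were 3.38% higher and 2.49% lower. No test of a difference between these groups and the 8 genes could be made.

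Genes of the pathways known to control these chemokines were followed as lists. The lists were chosen with earlier results of these data known, and the part of these pathways in the chemokine values was not tested. For comparison, 3.38% of all genes tested were higher and 2.49% lower by 2-fold or more. NF-kB is a classical inducer of Ccl3, Ccl4 and Ccl5. Of 18 NF-kB and early inflammatory genes, all 18 passed the minimum, 6 were higher past 2-fold and 0 lower, and the median log2 ratio was 0.87. Those 6, Il1a, Il1b, Tnfaip3, Tnip1, Icam1 and Relb, had log2 ratios of 4.32, 2.56, 1.74, 1.73, 1.35 and 1.08. The NF-kB subunit genes Rela and Rel each had a log2 ratio of 0.06, with counting intervals that include a ratio of 1. IL-4 acting through STAT6 is a known inducer of Ccl17, Ccl22 and Ccl24. Of 14 genes of that pathway and of alternative activation, all 14 passed the minimum, 0 were higher past 2-fold and 4 lower, with a median log2 ratio of -0.25. Those 4 were Retnla, Mrc1, Arg1 and Clec10a, at log2 ratios of -3.65, -1.62, -1.44 and -1.23. Il4ra and Stat6 had log2 ratios of -0.21 and -0.23. Irf4, a factor tied to Ccl17 and Ccl22 in myeloid cells, had a log2 ratio of 0.75. It was 1 of the 2 genes of this list that were higher with mrWNT2. Interferon regulatory and response genes, which include known inducers of Ccl5, had 11 of 14 above the minimum, 1 higher past 2-fold (Cxcl10, 48 counts with mrWNT2 and 18 in control) and 1 lower (Mx1, 7 and 20 counts), with a median of -0.10.

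Markers of cells that could supply these transcripts were set beside them. The shares over all genes tested were again 3.38% higher and 2.49% lower past 2-fold. T and NK cells are a major source of Ccl5. Their 11 markers summed to 21.9 CPM in each library, and 1 (Nkg7) passed the minimum. Nkg7 made up nearly all of that sum, at 20.7 CPM with mrWNT2 and 20.2 CPM in control. Cd3e had 0 counts with mrWNT2 and 1 in control. Dendritic cells are a major source of Ccl17 and Ccl22. Their 10 markers summed to 39.6 CPM with mrWNT2 and 42.1 CPM in control. Most of that sum came from Itgax, at 25.1 CPM with mrWNT2 and 28.8 CPM in control. Of the 10, 5 were above the minimum and 1, Batf3, was higher past 2-fold (26 counts with mrWNT2 and 12 in control). The defining dendritic genes Zbtb46 and Flt3 had 9 and 2 counts with mrWNT2 and 10 and 3 in control. Basophils and mast cells can release Ccl3 and Ccl4: all 8 of their markers were measured, 0 were past 2-fold, and they summed to 365 CPM with mrWNT2 and 357 CPM in control. The 6 eosinophil markers, 0 of them past 2-fold, summed to 1421 CPM with mrWNT2 and 1372 CPM in control. Neutrophil markers summed to 60780 CPM with mrWNT2 and 76866 CPM in control (1 of 10 at least 2-fold lower). Macrophage markers summed to 1869 CPM with mrWNT2 and 2755 CPM in control, but differed in both directions. Of these 12, 11 passed the minimum, 7 were at least 2-fold lower and 1, Marco, was at least 2-fold higher. Marco had 4618 counts with mrWNT2 and 560 in control. Adgre1 was also higher, short of 2-fold, with 7426 counts with mrWNT2 and 4349 in control. Monocyte markers summed to 2672 CPM with mrWNT2 and 2396 CPM in control. Of these 5, 2 were at least 2-fold higher, Csf1r and Cd14. Cd14 and Ly6g lay close to the 2-fold line and did not pass it under every scaling. The part of any of these cell types in the chemokine values was not tested.

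The genes whose ratio was nearest to that of a member, over these 2 libraries, were sought among those that encode proteins and averaged 10 CPM or more. They were Ets2, Fpr1 and Bcl3 for Ccl3, Palld, Cmklr1 and Cep85 for Ccl4, Socs3, Cd69 and Spic for Ccl17, and Pcx, Gsta3 and Pid1 for Ccl22. Each differed by at most 0.03 from its member on the log2 scale. For Ccl5 the nearest were Ptgfrn, Serpina3f and Fstl1, 0.18 to 0.24 away.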

How the data were processed

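RNA-seq was done on 1 mrWNT2 and 1 control culture. Per the labels' protocols, RNA was extracted with TRIzol and libraries made with the NEBNext Ultra kit. Per the submitters' processing notes, the build was GRCm38 (mm10) and the tools included featureCounts 1.5.0-p3, HISAT2 2.0.5, DESeq2 1.20.0, fastp and CASAVA 1.8. The strand setting of the counting is not stated in these sources. The authors deposited raw counts per gene and FPKM, with a gene length, 1 column per library.

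Counts were scaled with TMM in edgeR 4.0.16 (R 4.3.3). The log2 ratio has no pseudocount and an exact 95% Clopper-Pearson interval. A count of 0 was set to 3 counts, and no ratio was formed where both counts were at or under 3. Genes averaging 1 CPM or more (called tested) were set against a 2-fold line, with no statistical test. FPKM intervals are exact Poisson. Reads carry no molecular identifiers. Code was tested on simulated data.

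Genes named were all members and the listed receptors (1 is not reported here), list genes past 2-fold (up to 6 a list), protein-coding neighbours within 100 kb and the 3 genes nearest in ratio; others were chosen after their values were seen. Members and lists were chosen with earlier results of these data known. Alternatives were other scalings, the FPKM ratio, other minimums and folds, and a floor of 1 count. Sequences are from RefSeq.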

Additional observations from a re-analysis of the deposited data

How the results depend on the processing

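The direction of each of the 7 measured members held under every alternative in which it had a value, namely 3 other scalings, the deposited FPKM ratio, other minimums and folds, and another floor. The deposited FPKM gave the same ratios as DESeq2 size factors, so they are not separate checks. The log2 ratio of Ccl6 was -0.50 with DESeq2 size factors and with the deposited FPKM, -0.44 with library totals and -0.52 with upper-quartile scaling, and that of Ccl9 was 0.87 with upper-quartile scaling. Those values lie outside the narrow counting intervals of these abundant genes. The median of all genes was between -0.04 and 0.04 over the scalings. Over the whole table, 1128 genes were at least 2-fold higher with mrWNT2 and 1104 lower with no expression minimum, 154 and 61 with a minimum of 10 CPM, and 980 and 902 were at least 1.5-fold higher and lower. With that 10 CPM minimum 2 of the monocyte-attracting genes were tested and lower. The log2 ratio of Cd14 fell under the 2-fold line with DESeq2 size factors (0.99) and with upper-quartile scaling (0.97). That of Ly6g was -0.98 with library totals, short of 2-fold lower. As a share of counts and not per length, Ccl6 took 75.3% with mrWNT2 and 89.5% in control. The NF-kB match was not found when the gene's own strand alone was searched. Protein identity was not run. The ratios of the neighbours Ciapin1 and Coq9, both near 0, changed sign within their counting intervals, Ciapin1 to -0.02 with DESeq2 size factors and with FPKM and to -0.04 with the upper quartile, and Coq9 to -0.01 with the upper quartile. No other gene's log2 ratio that was recomputed changed sign. No paired analysis was possible because each group has 1 library and the result comes from no test, and for the same reason no replicate could be left out. Depth limits Ccl24, Ccr4 and the decoy receptors, and the control level of Ccl5 rests on 15 counts.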

Other observations

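A pair of transcripts without a chemokine name lies within the chromosome 11 row, and both were lower with mrWNT2. E230016K23Rik (ENSMUSG00000051832, chromosome 11, 83582056 to 83623693, plus strand), a non-coding transcript whose span covers Ccl6 on the opposite strand, had 104 counts with mrWNT2 and 347 in control and was 3.17-fold lower (2.54 to 3.99). Ccl6, within that span, was 1.38-fold lower. No stretch of 50 bases in the reference transcripts of Ccl6 occurs in those of another gene on either strand. The strand setting of the counting is not stated in these sources. A gene model without a name (chromosome 11, 83650360 to 83657795, plus strand), which begins 1005 bases beyond Ccl3 and ends before Ccl4, had 131 counts with mrWNT2 and 243 in control and was 1.76-fold lower (1.42 to 2.20), while Ccl3 and Ccl4 on its sides were 2.22-fold and 2.04-fold higher. These transcripts were singled out after their values were seen.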
